A study of Mus musculus with 12 samples.

Results

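Of the 18193 genes measured in whole mouse skin, 10 were followed as markers of Langerhans cells and dendritic cells (DCs): Cd207, Epcam, Cd209a, Xcr1, Siglech, Itgax, Flt3, Cd83, Cd86 and Ccr7. They were chosen by name, with earlier results of these data known. Each was read from the probe sets annotated to that gene alone, 12 in all. Epcam and Cd86 have 2 probe sets each, and the one with the higher mean over the arrays stands for the gene. All 10 were measured and tested, and dim genes were kept. The skin came from mice lacking the aryl hydrocarbon receptor (AhR), a ligand-activated transcription factor, in all cells (Ahr-/-) and from heterozygous littermates (Ahr+/-), so that the controls also carry 1 deleted allele. Mice of both genotypes were either untreated (day 0) or examined on day 2 of daily treatment of the back with a cream containing imiquimod (IMQ), an agonist of a Toll-like receptor that induces psoriasis-like inflammation. There were 3 arrays for each of these 4 groups, 12 in all, labelled as biological replicates. Age, sex and whether RNA of several animals was pooled are not given in the sources used here. Untreated mice received no cream, so a response to IMQ here is the response to the whole treatment, and imiquimod, cream and handling cannot be told apart.

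Langerhans cells are the dendritic cells of the epidermis. They carry langerin, the product of Cd207, and the adhesion molecule EpCAM. On activation they leave for the draining lymph nodes under the chemokine receptor CCR7. The dermis holds type 1 and type 2 conventional DCs, which need the receptor FLT3 to develop and sample antigen there, while plasmacytoid DCs, which release type I interferon, enter skin mainly in inflammation. Maturing DCs display CD83 and the costimulatory molecule CD86. In RNA of whole skin, fewer cells of a type and less RNA per cell cannot be told apart.

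Values are log2 signals, so a difference of 1 is a 2-fold change. A gene was called, and is said to have risen or fallen, at an adjusted p under 0.05 in limma together with a fold change of at least 1.5. The p-values rest on how far arrays of 1 group lie apart, a spread estimated from all 12 arrays and possibly technical, and the small number of arrays limits their precision. The deposited values carry no detection calls, so a low signal may be background. Some arrays stood apart. The excess of the 3' over the 5' Gapdh control signal, a log2 value that reflects RNA integrity, reached 1.17 and 1.52 in replicates 1 and 2 of Ahr-/- IMQ skin, where the other arrays lay between 0.14 and 0.53. The mean signal of 22 hair follicle growth phase genes was 11.70 in Ahr+/- untreated replicate 2, against 5.81 to 8.03 elsewhere, and that array also had the lowest Ptprc signal (9.10, against 10.27 to 10.99), a gene of nearly all leukocytes. The signal of Ahr lay between 10.11 and 11.30 in untreated Ahr+/- and between 11.29 and 11.44 in untreated Ahr-/- skin; where its probe set lies relative to the deletion was not determined, so it checks no label. The keratinocyte and epithelial markers averaged 11 to 11.83 over the arrays, among the brighter signals, as the tissue label says.

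On day 2 of IMQ, the markers moved in both directions. In Ahr+/- skin, 1 of the 10 rose (Ccr7) and 1 fell (Cd209a), where 5.22% of all genes rose and 3.83% fell. In Ahr-/- skin, 1 rose (Ccr7) and 5 fell (Cd207, Epcam, Cd209a, Cd83 and Cd86), where 10.6% of all genes rose and 12.1% fell. The median difference of the 10 markers was -0.16 in Ahr+/- and -0.54 in Ahr-/- skin, beside -0.01 and 0.07 over all genes. No marker passed the test between the genotypes, either on day 2, where 3.98% of all genes did, or without treatment, where 0.0055% did. The difference between the genotypes' responses passed the test for none of the 10 either, beside 1.32% of all genes. These comparisons share arrays: each untreated or treated group serves in 2 of the 4 group comparisons and in the difference between the responses.

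**Figure D1:**
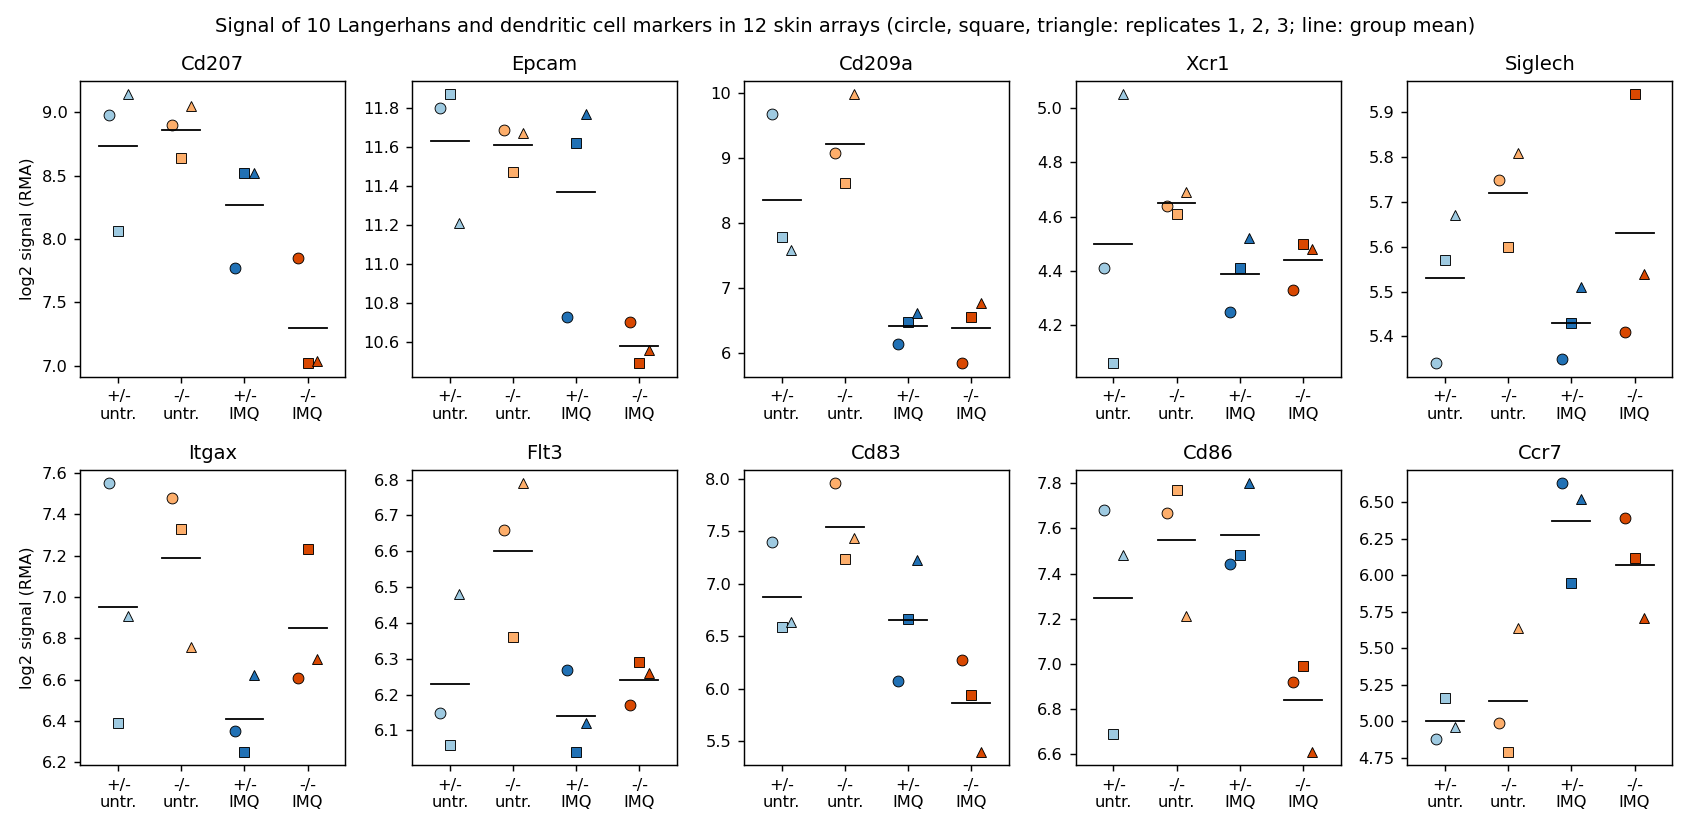
Log2 signal of each of the 10 markers in each of the 12 arrays, by genotype (+/- or -/-) and treatment (untr., untreated; IMQ, day 2). Circles, squares and triangles are replicates 1, 2 and 3, which were not treated as pairs, and lines are the means of 3 arrays. Each panel has its own vertical scale. Cd209a is lower and Ccr7 higher in all IMQ arrays than in all untreated arrays, while Cd86 separates the Ahr-/- IMQ arrays, at 6.61 to 6.99, from the Ahr+/- IMQ arrays, at 7.44 to 7.80.

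Cd207 encodes langerin, the lectin of Birbeck granules and a marker of Langerhans cells, though whole skin cannot show which cells its signal came from. Cd207 fell in Ahr-/- skin. Its log2 signal was 8.98, 8.06 and 9.14 in untreated Ahr+/- skin and 7.77, 8.52 and 8.52 in Ahr+/- skin after IMQ, and these groups overlapped. It was 8.90, 8.64 and 9.05 in untreated Ahr-/- skin and 7.85, 7.02 and 7.04 in Ahr-/- skin after IMQ, so that all treated arrays lay below all untreated ones. The response was -1.56 in Ahr-/- skin (standard error 0.31, 2.94-fold, adjusted p = 0.00296) and -0.45 in Ahr+/- skin (95% interval -1.13 to 0.22, adjusted p = 0.409). The lowest of the untreated Ahr+/- values came from the array with high hair follicle and low Ptprc signals. Without that array the Ahr+/- response of Cd207 was -0.79 (adjusted p = 0.0806), and without Ahr+/- IMQ replicate 1, the lowest treated value, it was -0.20 (adjusted p = 0.813). With replicate 3 as the single Ahr-/- IMQ array, the Ahr-/- response of Cd207 was -1.82. With the Gapdh difference as a covariate the response was -1.75 (adjusted p = 0.0208). The Gapdh difference varied mostly within Ahr-/- IMQ skin (1.17, 1.52 and 0.28). Both settings therefore lean on replicate 3 and, here and below, are not 2 separate checks. Whether RNA integrity had a part in the fall was not tested.

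Epcam, which encodes an adhesion molecule of Langerhans cells that epithelial cells of the hair follicle and other keratinocytes also make, fell in Ahr-/- skin too. Its signal was 11.69, 11.47 and 11.67 in untreated Ahr-/- skin and 10.70, 10.49 and 10.56 after IMQ, without overlap, a response of -1.03 (standard error 0.25, adjusted p = 0.00903). In Ahr+/- skin it was 11.80, 11.87 and 11.21 untreated and 10.73, 11.62 and 11.77 after IMQ. One treated Ahr+/- array, replicate 1, thus lay near the Ahr-/- IMQ arrays and the other 2 within the untreated range, and the response of -0.25 did not pass the test (95% interval -0.80 to 0.29, adjusted p = 0.6). The second, dimmer probe set of Epcam also fell in Ahr-/- skin, by 0.67 on the log2 scale (adjusted p = 0.0157). The call of the main set was lost with the Gapdh difference as a covariate (-1, adjusted p = 0.0827), as it was when replicate 3 stood alone for Ahr-/- IMQ skin (-1.05, adjusted p = 0.136), while the size of the difference changed little.

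Cd209a, which encodes a DC-SIGN-like lectin of type 2 conventional and monocyte-derived DCs, fell in both genotypes and had the widest range of the 10 markers over the arrays, from 5.84 to 9.98. It was 9.68, 7.79 and 7.59 in untreated Ahr+/- skin and 6.13, 6.47 and 6.62 after IMQ. Ahr-/- skin had 9.08, 8.61 and 9.98 untreated and 5.84, 6.55 and 6.77 after IMQ. In both genotypes every treated array lay below every untreated array, and the treated arrays of the genotypes overlapped. The response was -1.95 in Ahr+/- (standard error 0.49, 3.85-fold, adjusted p = 0.0252) and -2.84 in Ahr-/- skin (standard error 0.49, 7.15-fold, adjusted p = 0.00117), and the difference between them did not pass the test (-0.89, 95% interval -2.39 to 0.61, adjusted p = 0.542). The Ahr+/- call of Cd209a was lost without Ahr+/- IMQ replicate 1, 2 or 3 (adjusted p = 0.0952, adjusted p = 0.0705 and adjusted p = 0.0534), with differences of -1.80, -1.98 and -2.05. Without Ahr+/- untreated replicate 1, the highest of its group, the Ahr+/- response was smaller but still called (-1.28, adjusted p = 0.0424). The Ahr-/- call was lost with replicate 3 alone (-2.45, adjusted p = 0.0748).

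Xcr1 and Siglech, the markers of type 1 conventional and of plasmacytoid DCs, did not pass the test in any comparison. Xcr1, the receptor for the chemokine XCL1, lay between 4.06 and 5.05 over the 12 arrays, the only marker with a mean below 5. Its responses were -0.11 in Ahr+/- (95% interval -0.55 to 0.33) and -0.21 in Ahr-/- skin (95% interval -0.65 to 0.23). In Ahr-/- skin the treated arrays, at 4.33, 4.50 and 4.48, still lay below the untreated ones, at 4.64, 4.61 and 4.69. Siglech, a sialic acid-binding lectin of plasmacytoid DCs, spanned only 5.34 to 5.94, with responses of -0.10 (95% interval -0.44 to 0.24) and -0.09 (95% interval -0.43 to 0.25). At signals this low the arrays cannot tell a low level from background.

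Itgax and Flt3, which are shared by most conventional DCs, did not pass the test either. Itgax encodes the integrin CD11c, which some macrophages carry too. Itgax was 7.55, 6.39 and 6.91 in untreated Ahr+/- skin and 6.35, 6.25 and 6.62 after IMQ. The Ahr-/- arrays read 7.48, 7.33 and 6.76 untreated and 6.61, 7.23 and 6.70 after IMQ. Treated and untreated arrays overlapped in both genotypes, with responses of -0.54 (95% interval -1.15 to 0.07, adjusted p = 0.257) and -0.34 (95% interval -0.95 to 0.27, adjusted p = 0.405). Without the untreated Ahr+/- array with high hair follicle signals, the Ahr+/- response of Itgax was -0.82 (adjusted p = 0.0535). Flt3, the receptor for the growth factor FLT3L, was 6.66, 6.36 and 6.79 in untreated Ahr-/- skin and 6.17, 6.29 and 6.26 after IMQ. These groups did not overlap, but the difference of -0.37 was small and missed the threshold (95% interval -0.70 to -0.03, adjusted p = 0.0994). In Ahr+/- skin Flt3 was 6.15, 6.06 and 6.48 untreated and 6.27, 6.04 and 6.12 after IMQ, a difference of -0.09 (adjusted p = 0.782).

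Promoter sequences are shown for the 3 markers that fell and have an entry, Cd207, Epcam and Cd209a, and for Itgax, whose window holds the core of the AhR response element. They are the 250 bases before the transcription start in RefSeq, build GRCm38.p6, written 5' to 3' on the strand of the gene, at chr6:83677858-83678107 on the minus strand for Cd207, chr17:87635729-87635978 on the plus strand for Epcam, chr8:3748985-3749234 on the minus strand for Cd209a and chr7:128129300-128129549 on the plus strand for Itgax. Of the 10 markers, 7 had an entry, and Ccr7, Cd83 and Cd86 had none. Capitals mark the AhR response element core, GCGTG, and the PU.1-type core, GAGGAAG, searched on both strands, so that a match on the other strand reads CACGC or CTTCCTC.
Cd207: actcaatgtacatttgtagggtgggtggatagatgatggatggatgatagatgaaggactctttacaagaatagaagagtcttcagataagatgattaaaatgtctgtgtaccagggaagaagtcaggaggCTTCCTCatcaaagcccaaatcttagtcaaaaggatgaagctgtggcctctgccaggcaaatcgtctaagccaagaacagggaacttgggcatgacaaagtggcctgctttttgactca
Epcam: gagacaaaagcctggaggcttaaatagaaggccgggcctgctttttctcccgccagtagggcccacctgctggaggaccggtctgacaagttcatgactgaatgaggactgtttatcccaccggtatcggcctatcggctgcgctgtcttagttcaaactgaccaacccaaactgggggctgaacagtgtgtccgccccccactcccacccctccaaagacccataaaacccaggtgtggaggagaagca
Cd209a: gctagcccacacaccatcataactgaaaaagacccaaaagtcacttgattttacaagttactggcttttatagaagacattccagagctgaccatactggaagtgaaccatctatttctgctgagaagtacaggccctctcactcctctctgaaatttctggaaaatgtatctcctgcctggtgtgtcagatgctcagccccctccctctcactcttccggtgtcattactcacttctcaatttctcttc
Itgax: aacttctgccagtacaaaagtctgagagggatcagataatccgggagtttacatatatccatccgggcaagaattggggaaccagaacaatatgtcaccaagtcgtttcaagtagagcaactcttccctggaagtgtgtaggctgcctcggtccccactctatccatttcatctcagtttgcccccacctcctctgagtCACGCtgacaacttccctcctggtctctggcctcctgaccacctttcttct
The AhR core was found in 2 of the 7 windows, and in 28.2% of all 32851 promoter windows of this length. It began at position -51 in Itgax and -243 in Xcr1, counted from the transcription start used for each window. RefSeq also places the start of the Itgax gene at chr7:128129526, so the Itgax window reaches into that interval. The PU.1-type core was found in 1 of the 7, in Cd207 from position -119, and in 10.6% of all windows. No match stood in the windows of Epcam and Cd209a. The matches are given as a description of these letters alone, since the arrays measured no binding.

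Cd83 and Cd86, read here as markers of mature DCs, fell in Ahr-/- skin. Cd83, whose product is an immunoglobulin-like surface protein, was 7.40, 6.59 and 6.64 in untreated Ahr+/- skin and 6.08, 6.67 and 7.23 after IMQ, without a clear order. The Ahr-/- values were 7.96, 7.24 and 7.44 untreated and 6.28, 5.94 and 5.40 after IMQ, so that the groups stood well apart. The response of Cd83 was -1.67 in Ahr-/- (standard error 0.32, 3.19-fold, adjusted p = 0.0025) and -0.22 in Ahr+/- skin (95% interval -0.92 to 0.48, adjusted p = 0.744). It was -2.15 with Ahr-/- IMQ replicate 3 alone (adjusted p = 0.0221), the lowest Cd83 value of all, where the spread came from the other groups only, and -2.01 with the Gapdh difference as a covariate (adjusted p = 0.011).

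Cd86, the ligand of the T cell receptors CD28 and CTLA-4, was 7.68, 6.69 and 7.48 in untreated Ahr+/- skin and 7.44, 7.48 and 7.80 after IMQ. The Ahr-/- values were 7.67, 7.77 and 7.21 untreated and 6.92, 6.99 and 6.61 after IMQ, with every treated array below every untreated one. The response was -0.71 in Ahr-/- (standard error 0.24, adjusted p = 0.0462), just inside the threshold, and 0.29 in Ahr+/- skin (95% interval -0.24 to 0.82, adjusted p = 0.524). The Ahr-/- call of Cd86 was lost in 11 of 18 alternatives, among them leaving out any of the 3 Ahr-/- IMQ arrays or Ahr-/- untreated replicate 1 or 2, with differences between -0.95 and -0.59 over all of them. The second probe set of Cd86 was dimmer and did not pass the test, with responses of 1.05 in Ahr+/- (adjusted p = 0.0816) and -0.61 in Ahr-/- skin (adjusted p = 0.248). Its lowest value was 4.55, in Ahr+/- untreated replicate 2, and without that array the Ahr+/- response of the main set was -0.01.

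Ccr7, the chemokine receptor that guides mature DCs to lymph nodes and that naive T cells also carry, rose in both genotypes. It was 4.88, 5.16 and 4.96 in untreated Ahr+/- skin and 6.63, 5.95 and 6.52 after IMQ, with a gap between the groups. The Ahr-/- arrays read 4.99, 4.79 and 5.64 untreated and 6.39, 6.12 and 5.71 after IMQ, where the groups nearly met. The response was 1.37 in Ahr+/- (standard error 0.25, 2.58-fold, adjusted p = 0.00475) and 0.93 in Ahr-/- skin (standard error 0.25, 1.91-fold, adjusted p = 0.0147). Untreated signals this low may be background, and the folds may then understate the change. The Ahr+/- call held in all 18 alternatives other than the rank product. The Ahr-/- call did not hold when Ahr-/- untreated replicate 1 or 2 was left out (0.86, adjusted p = 0.0579, and 0.76, adjusted p = 0.0699), without Ahr-/- IMQ replicate 1 (0.77, adjusted p = 0.0668), with IMQ replicate 3 alone (0.57, adjusted p = 0.366) and with the Gapdh difference as a covariate (0.67, adjusted p = 0.204).

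**Figure D2:**
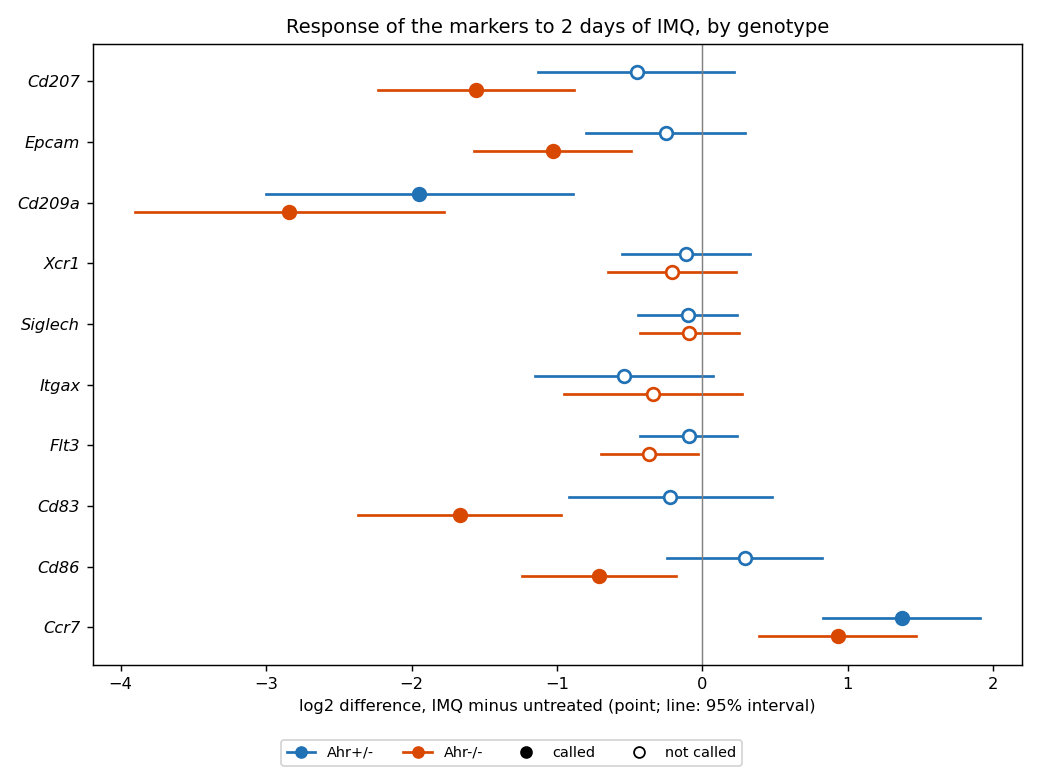
Response to IMQ, as day 2 minus untreated log2 signal, for each marker in Ahr+/- (blue) and Ahr-/- skin (orange), from limma, with 95% intervals; filled points were called. Cd209a fell and Ccr7 rose in both genotypes, and the Ahr-/- points of Cd207, Epcam, Cd83 and Cd86, at -1.56, -1.03, -1.67 and -0.71, lie left of the Ahr+/- points.

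Counted by separation alone, 1 marker lay above and 1 below in every treated Ahr+/- array, beside 29.8% of all genes without overlap in that comparison. In Ahr-/- skin 1 lay above and 7 below, the 5 that fell with Flt3 and Xcr1, beside 42.7% of all genes.

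Between the genotypes, the day 2 comparison asks whether the markers differed in inflamed skin with and without AhR. Cd207, Epcam, Cd83 and Cd86 were lower in Ahr-/- than in Ahr+/- IMQ skin by their means, with unadjusted p under 0.05, but none passed after adjustment. Of all 18193 genes, 1891 were lower and 1937 higher with an unadjusted p under 0.05 in this comparison. The differences were -0.97 for Cd207 (95% interval -1.64 to -0.29, adjusted p = 0.101), -0.79 for Epcam (-1.34 to -0.25, adjusted p = 0.0966), -0.79 for Cd83 (-1.49 to -0.08, adjusted p = 0.189) and -0.73 for Cd86 (-1.26 to -0.21, adjusted p = 0.11). The second probe set of Epcam had a day 2 difference of -0.22 (adjusted p = 0.511), with 8.02, 7.88 and 8.38 in Ahr+/- and 7.61, 8.14 and 7.86 in Ahr-/- skin, which overlapped, and the mean of both sets gave -0.51 (adjusted p = 0.129). That of Cd86 had a difference of -0.96 (adjusted p = 0.149). The arrays of the genotypes did not overlap for 2 of the 10 by the main probe sets, Epcam and Cd86, beside 33% of all genes. The Ahr+/- IMQ array with the lowest Cd207, Epcam and Cd83 signals was replicate 1, and without it Epcam passed the test (-1.12, adjusted p = 0.00822). That array also had the highest neutrophil marker mean of its group, 9.60 against 8.48 and 8.17. Cd86 passed when the 2 IMQ groups were fitted alone (-0.73, adjusted p = 0.0333). For the other 6 markers the day 2 differences ran from -0.29 for Ccr7 to 0.44 for Itgax, with adjusted p from 0.394 to 0.985.

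The difference between the responses, Ahr-/- minus Ahr+/-, was below 0 for 8 of the 10 markers, none of which passed the test. The same 4 genes had an unadjusted p under 0.05. Of all 18193 genes, 1822 had such a p with a difference below 0 and 1363 with one above 0. The difference was -1.10 for Cd207 (standard error 0.44, adjusted p = 0.218), -0.78 for Epcam (standard error 0.35, adjusted p = 0.281), -1.45 for Cd83 (standard error 0.46, adjusted p = 0.131) and -1 for Cd86 (standard error 0.34, adjusted p = 0.165). The second probe set of Epcam gave -0.43 (adjusted p = 0.408) and that of Cd86 -1.66 (adjusted p = 0.129). That these 4 fell in Ahr-/- skin and were not called in Ahr+/- skin is therefore not shown to be a difference between the genotypes. The difference of Cd83 passed without Ahr+/- untreated replicate 1 (-1.71, adjusted p = 0.0485). With 3 arrays a group the difference of responses is the least precise comparison.

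**Figure D3:**
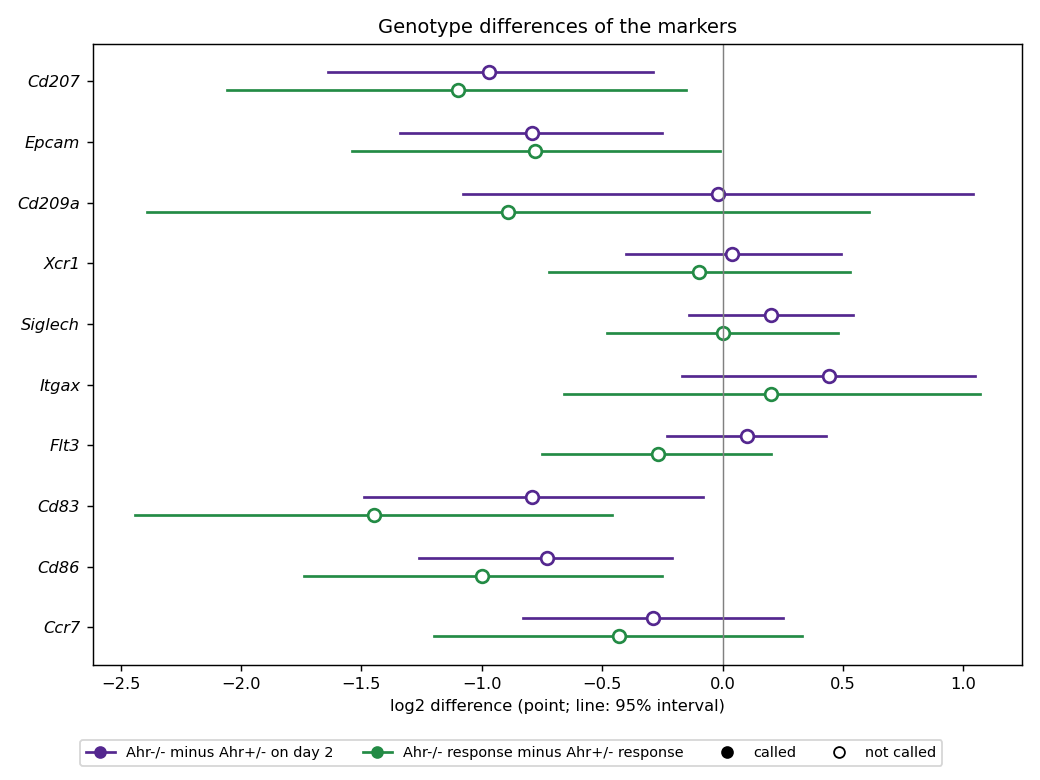
Log2 difference between the genotypes on day 2 of IMQ (purple, Ahr-/- minus Ahr+/-) and difference between the genotypes' responses to IMQ (green), from limma, with 95% intervals. The intervals of Cd207, Epcam, Cd83 and Cd86 lie below 0 in both, and all points are open because no adjusted p was under 0.05.

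Without treatment no marker differed between the genotypes after adjustment, and no pair of groups was free of overlap for any of the 10, beside 8.81% of all genes. The mean was higher in Ahr-/- skin for 9 of the 10, with a median difference of 0.22 beside 0.02 over all genes. The largest were 0.87 for Cd209a (95% interval -0.19 to 1.93, adjusted p = 0.782) and 0.67 for Cd83 (95% interval -0.04 to 1.37, adjusted p = 0.756). Flt3, with 0.37, was the 1 marker with an unadjusted p under 0.05 (adjusted p = 0.74). Of all 18193 genes, 742 were higher and 438 lower with such a p. Ahr+/- untreated replicate 2 had the lowest signal of its group for Cd207, Itgax, Flt3, Cd83, Cd86 and Xcr1, and without it the differences of Cd207, Itgax, Cd86 and Xcr1 were -0.20, -0.04, -0.03 and -0.08, while those of Flt3 and Cd83 were 0.29 and 0.52.

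Other genes of the same cells were read as lists. For comparison with these and the later lists, 5.22% of all genes rose and 3.83% fell in Ahr+/- skin. In Ahr-/- skin 10.6% rose and 12.1% fell, and 3.98% were called on day 2 between the genotypes. The median response over all genes was -0.01 in Ahr+/- and 0.07 in Ahr-/- skin. In lists this short, counts near these shares do not set a list apart. Of 11 measured genes of type 2 conventional DCs, Cd209a among them, 5 fell and 1 rose in Ahr+/- skin and 6 fell in Ahr-/- skin, with median responses of -0.60 and -0.84. Mgl2, a galactose-binding lectin of dermal type 2 DCs and macrophages, fell most. It was 12.28, 10.01 and 10.95 in untreated Ahr+/- and 11.60, 11.88 and 11.66 in untreated Ahr-/- skin, and after IMQ 6.76, 7.60 and 7.52 and then 6.25, 5.82 and 6.23. Its responses of -3.79 (adjusted p = 0.000207) and -5.61 (adjusted p = 3.52e-06) were called in all 18 alternatives other than the rank product. Clec10a, a related lectin, fell by 1.44 (adjusted p = 0.00711) and 1.47 on the log2 scale (adjusted p = 0.00228), and Cd209d, a further DC-SIGN-like lectin, by 1.32 (adjusted p = 0.0409) and 1.36 (adjusted p = 0.0163). Irf4, a transcription factor of type 2 DCs, fell in Ahr-/- skin (-2.13, adjusted p = 0.00111), where the Ahr+/- value was -0.67 (adjusted p = 0.286). Cd1d1, which presents lipids, fell in Ahr-/- skin (-0.84, adjusted p = 0.0153). Notch2, a receptor in DC development, fell in Ahr+/- skin (-0.60, adjusted p = 0.00719), and Itgam, the CD11b gene that neutrophils and macrophages also use, rose there (2.61, adjusted p = 0.00912). No gene of this list passed on day 2 between the genotypes. With the Gapdh difference as a covariate 3 genes fell in Ahr-/- skin (Cd209a, Irf4 and Mgl2), with replicate 3 alone 2 did (Irf4 and Mgl2), and Itgam rose under both.

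Of 15 Langerhans cell genes, including Cd207 and Epcam, 2 rose and none fell in Ahr+/- skin, while 4 rose and 4 fell in Ahr-/- skin, so the list did not move one way. Medians were -0.23 and -0.20. Beside Cd207 and Epcam, those that fell were Cd1d1 and Csf1r, the receptor for IL-34 and CSF1 (-0.87, adjusted p = 0.0187). Those that rose in Ahr-/- skin were Cd24a (1.08, adjusted p = 0.000715), Gfra1 (1.48, adjusted p = 0.000461), Cxcr4 (1.85, adjusted p = 0.000741) and Tnfaip2 (1.33, adjusted p = 0.0185), which other skin cells or leukocytes make too. Cxcr4 and Gfra1 were also the 2 genes of the list that were higher in Ahr-/- than Ahr+/- skin on day 2, by 2.07 (adjusted p = 0.00258) and 1.21 (adjusted p = 0.00993). In Ahr+/- skin Cd24a (0.78, adjusted p = 0.0133) and Ly75, the antigen uptake receptor DEC-205 (0.62, adjusted p = 0.0456), rose, the call of Ly75 being lost in 10 of 17 alternatives. With the Gapdh difference as a covariate, and likewise with replicate 3 alone, Cd207 was the 1 gene of this list that fell in Ahr-/- skin and 3 rose, Cd24a, Cxcr4 and Gfra1. The day 2 call of Gfra1 was lost under both and that of Cxcr4 with the covariate. Without Ahr+/- untreated replicate 2, 1 gene of the list rose and 2 fell in Ahr+/- skin, Csf1r and Pmel. By all arrays neither was called there (-0.4 and -2.18). Csf1r is also on the macrophage list below, and other skin cells make Pmel too.

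Of 9 measured type 1 conventional DC genes, none was called in Ahr+/- and 1 fell in Ahr-/- skin (medians 0.11 and -0.21). That gene was Itgae, which encodes the integrin CD103 of type 1 DCs and of epidermal T cells. It was 7.67, 7.89 and 7.87 in untreated and 6.06, 5.75 and 5.10 in IMQ-treated Ahr-/- skin, a difference of -2.17 (adjusted p = 0.00184). On day 2 Batf3, a transcription factor that type 1 DCs need, was lower in Ahr-/- than in Ahr+/- skin by -0.86 (adjusted p = 0.0219), a call lost in 7 of 18 alternatives. Of 13 plasmacytoid DC genes, 3 rose and 1 fell in each genotype (medians 0.09 and 0.07, beside -0.01 and 0.07 over all genes). Lair1 (1.66, adjusted p = 0.000787, and 0.87, adjusted p = 0.0133) and Ly6d (0.67, adjusted p = 0.019, and 1.02, adjusted p = 0.000584), which other leukocytes or keratinocytes also express, rose in both. Tcf4, a transcription factor of plasmacytoid DCs, fell in both, by 0.62 (adjusted p = 0.0168) and 0.85 (adjusted p = 0.00107). Whole skin cannot show in which cells it fell. Ccr9 rose in Ahr+/- (1.03, adjusted p = 0.00808) and Irf7, an interferon-induced gene, in Ahr-/- skin (1.35, adjusted p = 0.0295). Of 14 DC development genes, including Flt3, 1 fell in Ahr+/- skin, the regulator Id2 (-0.90, adjusted p = 0.00513). In Ahr-/- skin 4 fell and 2 rose, with Irf4, Dpp4 (-1.32, adjusted p = 0.00221), Bcl6 (-0.89, adjusted p = 0.00363) and Id2 (-0.74, adjusted p = 0.00582) lower and Nfil3 (1.40, adjusted p = 0.00124) and Csf2rb (1.56, adjusted p = 0.0038) higher. On day 2 Nfil3 (1.26, adjusted p = 0.0138) and Csf2rb (1.33, adjusted p = 0.0398) were higher in Ahr-/- than Ahr+/- skin. Zbtb46, a transcription factor of conventional DCs, was not called in either genotype (-0.08 and 0.24).

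The maturation and migration genes, to which Ccr7, Cd83 and Cd86 belong, split in Ahr-/- skin. Of 23 measured, 4 rose and none fell in Ahr+/- skin, and 8 rose and 3 fell in Ahr-/- skin, with medians of 0.02 and 0.24. Fscn1, the actin-bundling protein of mature DCs, rose in both genotypes, from 10.24, 10.37 and 9.31 to 12.21, 11.60 and 11.56 in Ahr+/- (1.81, adjusted p = 0.00126) and from 9.85, 10.04 and 10.13 to 12.21, 12.51 and 12.01 in Ahr-/- skin (2.24, adjusted p = 9.64e-05). Ccl5 rose by 0.88 (adjusted p = 0.0252) and 1.16 (adjusted p = 0.0022), and Cd274, which encodes PD-L1, by 1.16 (adjusted p = 0.0145) and 0.98 (adjusted p = 0.0141). Cd80, whose product binds CD28 as that of Cd86 does, rose in Ahr-/- skin (1.21, adjusted p = 0.00649) and was higher there than in Ahr+/- skin on day 2 (1.3, adjusted p = 0.0231), which is opposite in sign to the values of Cd86. Its treated values were 4.63, 4.59 and 4.98 in Ahr+/- and 6.15, 6.36 and 5.59 in Ahr-/- skin. In Ahr-/- skin Marcksl1 (1.97, adjusted p = 0.00413) and Traf1 (1.19, adjusted p = 0.0109) rose as well. Marcksl1 and Traf1 were the other 2 of the 3 genes of this list called on day 2, higher by 2.24 (adjusted p = 0.0112) and 1.66 (adjusted p = 0.00948). All 3 day 2 calls were lost with the Gapdh difference as a covariate and with replicate 3 alone. In Ahr-/- skin those settings left 2 genes that rose, Fscn1 and Ccl5, and Cd83 among those that fell. Il15 fell with Cd83 and Cd86 in Ahr-/- skin (-0.73, adjusted p = 0.0296), and the DC chemokines Ccl17 and Ccl22 and the receptor Cd40 were not called in either genotype.

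**Figure D4:**
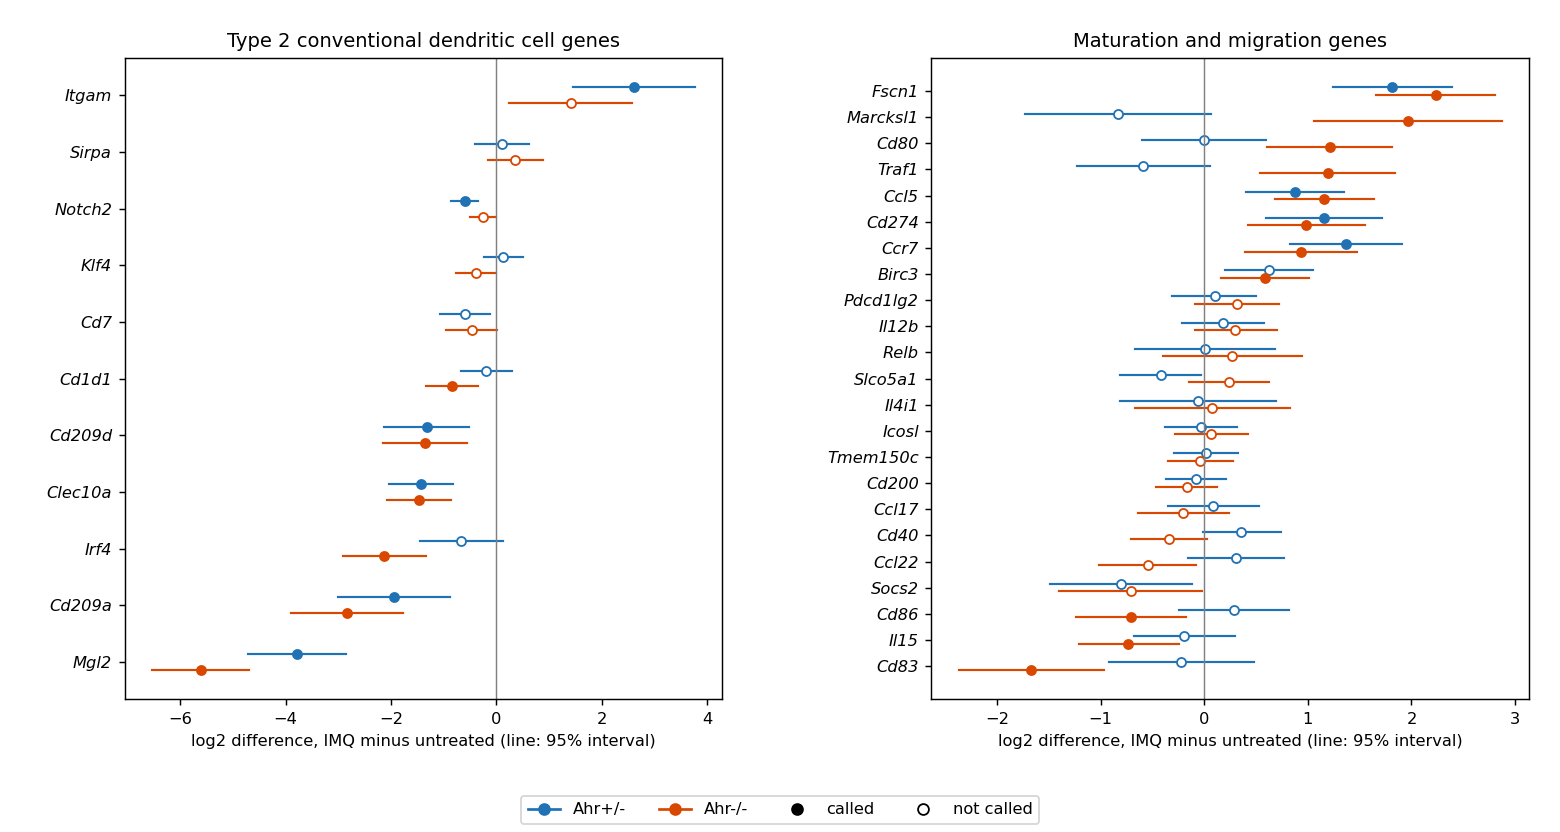
Response to IMQ, as day 2 minus untreated log2 signal, for 11 type 2 conventional DC genes (left) and 23 maturation and migration genes (right) in Ahr+/- (blue) and Ahr-/- skin (orange), from limma, with 95% intervals; filled points were called and genes are ordered by the Ahr-/- value. Mgl2 lies farthest left, at -3.79 and -5.61, and Fscn1 lies at 1.81 and 2.24, while Cd83 and Cd86 lie left of 0 in Ahr-/- skin and Ccr7 right of 0 in both genotypes.

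Of 12 measured ligands and survival factors, 1 rose in Ahr+/- and 2 rose and 3 fell in Ahr-/- skin (medians -0.23 and 0.00). Il34, the keratinocyte cytokine that maintains Langerhans cells, fell in Ahr-/- skin from 8.00, 7.85 and 7.87 to 6.94, 6.44 and 5.15 (-1.73, adjusted p = 0.00487) and was called in all 18 alternatives other than the rank product. In Ahr+/- skin it went from 7.94, 6.89 and 7.54 to 6.26, 6.65 and 6.79, without overlap but without a call (-0.89, adjusted p = 0.164), and the responses were not shown to differ (-0.84, adjusted p = 0.443). Ccl20, the ligand of CCR6, rose in both, by 3.51 (adjusted p = 0.000809) and 1.40 (adjusted p = 0.0468), the latter call being lost in 13 of 18 alternatives. Xcl1, the ligand of the Xcr1 product, fell in Ahr-/- skin (-0.69, adjusted p = 0.00282), as did Cd28 (-0.63, adjusted p = 0.0312), and Cxcl14 rose (0.88, adjusted p = 0.0469). Cxcl14 was also higher in Ahr-/- than Ahr+/- skin on day 2 (2.09, adjusted p = 0.00272).

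Markers of other cells moved with the same comparisons, and their part in the results above was not tested. Of 9 neutrophil markers, 6 rose in Ahr+/- and 9 in Ahr-/- skin, and 7 were higher in Ahr-/- than Ahr+/- skin on day 2. Their mean signal was 5.80 to 6.19 in untreated arrays, 8.17 to 9.60 in Ahr+/- IMQ arrays and 11.16 to 11.28 in Ahr-/- IMQ arrays. With the Gapdh difference as a covariate, and with replicate 3 alone, 1 neutrophil marker, Trem1, was called on day 2 (3.13, adjusted p = 3.42e-05, by all arrays). The largest rises were those of S100a9 (8.23, adjusted p = 1.36e-08, and 8.35, adjusted p = 1.14e-08) and S100a8 (7.12, adjusted p = 6.28e-07, and 7.74, adjusted p = 1.72e-07), which inflamed keratinocytes also express. The 5 general leukocyte markers had mean signals of 9.02 to 10.82, 10.31 to 10.73, 10.48 to 10.83 and 11.09 to 11.23 in the Ahr+/- arrays without treatment, the Ahr-/- arrays without treatment, and the Ahr+/- and Ahr-/- arrays of day 2, and 1 of them, Cd53, rose in each genotype (1.31, adjusted p = 0.0365, and 1.06, adjusted p = 0.042). Ptprc itself did not pass (0.19 and 0.04).

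Of 11 keratinocyte and epithelial markers, 2 rose in Ahr+/- skin (Krt14, 1.49, adjusted p = 2.17e-05, and Krt5, 0.70, adjusted p = 0.0349), and 2 rose and 4 fell in Ahr-/- skin. Epcam fell together with Krt10 (-3.47, adjusted p = 0.000172), Cldn1 (-1.47, adjusted p = 0.000199), Krt1 (-1.47, adjusted p = 0.032) and Esrp1 (-0.62, adjusted p = 0.0208), genes of differentiating or epithelial keratinocytes, while Krt14 (1.58, adjusted p = 5.68e-06) and Cdh3 (1.03, adjusted p = 0.0111) rose. The list averaged 11.46 to 11.54 in untreated and 11 to 11.09 in IMQ-treated Ahr-/- arrays, and 11.41 to 11.54 and 11.50 to 11.83 in the Ahr+/- arrays. On day 2, 3 of the list were lower in Ahr-/- than Ahr+/- skin, Krt10, Krt1 and Cldn1, and none with the Gapdh covariate or with replicate 3 alone. Whether the fall of Epcam came from Langerhans cells or from keratinocytes cannot be told apart in whole skin. Of 14 macrophage and monocyte markers, 1 rose in Ahr+/- (Adgre1, 2.24, adjusted p = 0.000703) and 1 rose (Cd14, 3.81, adjusted p = 1.95e-05) and 3 fell in Ahr-/- skin, Csf1r, Ccr2 (-1.07, adjusted p = 0.0489) and Lyz1 (-0.69, adjusted p = 0.0425). The call of Ccr2 was lost in 12 of 18 alternatives, among them leaving out any 1 of the 6 Ahr-/- arrays. On day 2 Cd14 was higher (3.45, adjusted p = 0.000428) and Adgre1 lower (-1.6, adjusted p = 0.0119) in Ahr-/- than Ahr+/- skin. The macrophage list averaged 9.54 to 11.10 in untreated Ahr+/-, 10.36 to 10.97 in untreated Ahr-/-, 10.46 to 11.04 in Ahr+/- IMQ and 10.63 to 11.04 in Ahr-/- IMQ arrays. Of 7 T cell markers, 2 fell in Ahr+/- and 3 in Ahr-/- skin, Cd3g in both (-1.51, adjusted p = 0.0464, and -2.40, adjusted p = 0.00169), Thy1 in Ahr+/- skin (-1.64, adjusted p = 0.00519) and Cd2 (-1.14, adjusted p = 0.00517) and Cd3d (-1, adjusted p = 0.0234) in Ahr-/- skin. The Ahr+/- call of Cd3g was lost in 11 of 18 alternatives. Of 5 B cell markers, Ighm fell in both (-1.07, adjusted p = 0.0306, and -2.92, adjusted p = 1.98e-05) and Cd79b rose in Ahr+/- skin (1.51, adjusted p = 0.00305). With the mean of all its probe sets the responses of Ighm were much smaller, with -0.23 and -0.73 as the smallest over the alternatives, and the Ahr+/- call was lost in 7 of 18. Of 22 hair follicle growth phase genes, 7 fell in Ahr+/- and none in Ahr-/- skin, with Krt27 as an example (-4.25, adjusted p = 0.0313), and that list was high in the 1 untreated Ahr+/- array named above. Without that array 4 fell. In untreated skin all 22 were lower in Ahr-/- than Ahr+/- skin by their means, with a median difference of -3.06 and none called. The list averaged 7.77 to 11.7 in untreated Ahr+/- and 5.98 to 7.03 in untreated Ahr-/- arrays, without overlap. The part of this difference in the marker comparisons between the genotypes was not tested.

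**Figure D5:**
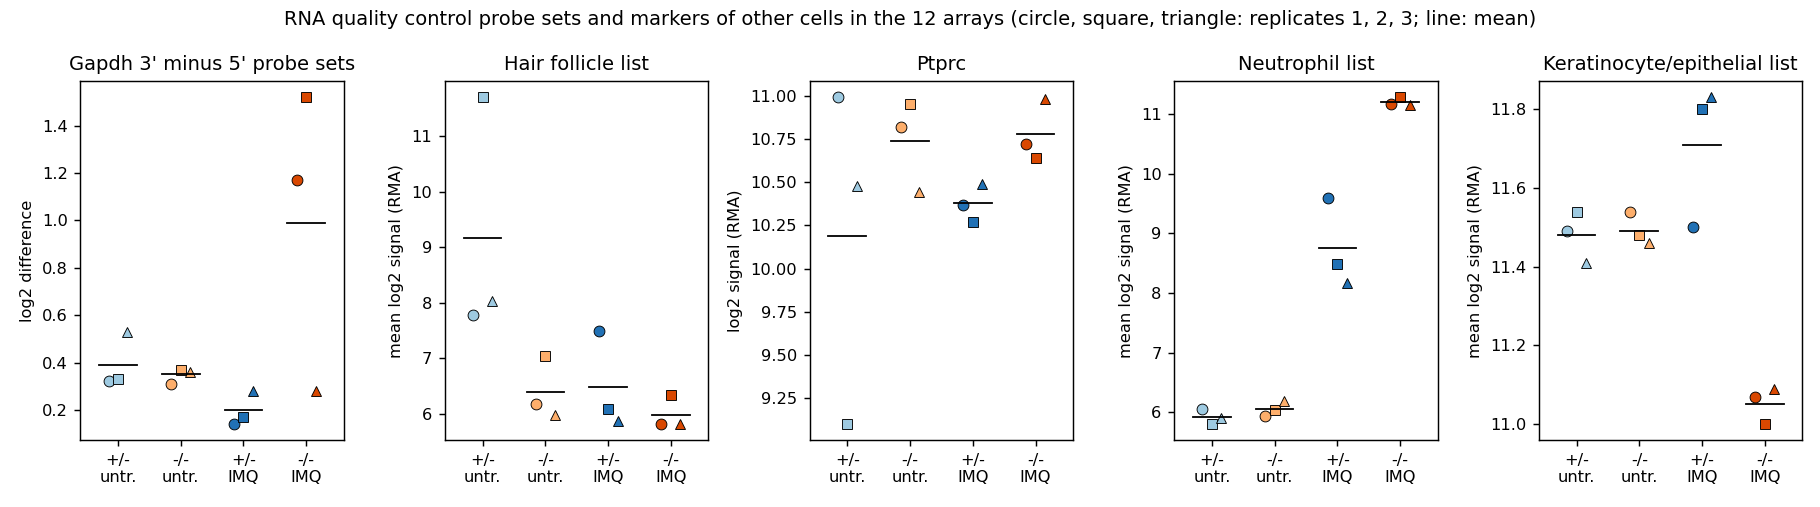
The Gapdh 3' minus 5' log2 difference, the mean log2 signal of 22 hair follicle genes, the log2 signal of Ptprc, and the mean log2 signals of 9 neutrophil and 11 keratinocyte and epithelial markers in each array; symbols are replicates and lines the means of 3 arrays, each panel with its own scale. Ahr-/- IMQ replicates 1 and 2 stand apart in the Gapdh panel at 1.17 and 1.52, Ahr+/- untreated replicate 2 in the hair follicle and Ptprc panels at 11.70 and 9.10, and the Ahr-/- IMQ arrays in the neutrophil and keratinocyte panels at 11.16 to 11.28 and 11 to 11.09.

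Among themselves the markers varied in several patterns over the 12 arrays. As a description, with no test, since the arrays fall into 4 groups, Pearson's r of the deviations from the group means was highest between Itgax and Cd86 (0.87), followed by Epcam and Cd83 (0.65) and Cd207 and Cd83 (0.64). Over all arrays Cd207 and Cd83 had an r of 0.86 and Cd207 and Epcam 0.79, with 0.27 for the deviations of the latter pair. Ccr7 ran against Cd209a over all arrays (-0.75), with 0.01 for the deviations, so that this relation lay between the groups. The genes whose signals were most like that of Cd207 over the 12 arrays were Gdpd2 (r = 0.97), Aldh1a7, Exph5, Scd1 and Lrp4 (each r = 0.96), with r of 0.91 to 0.95 for the deviations. For Itgax they were Plxnd1 (r = 0.98), Dnm1 (r = 0.96), Ppm1m (r = 0.96), Aebp1 (r = 0.95) and Mnt (r = 0.94), with r of 0.92 to 0.98 for the deviations. These are the highest of 18193 genes over few arrays that share groups, animals of 1 study and 1 normalization.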

How the data were processed

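Whole skin RNA of 12 samples, 3 arrays in each of 4 groups taken from the labels, was measured on Affymetrix arrays. The authors deposited log2 signals per probe set, computed by RMA with affy in R (versions not given in the sources used here), that is, with background correction, quantile normalization of all arrays and 1 summary value per probe set. Differences are therefore relative to the whole array. Array medians lay between 7.378 and 7.556.

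Of 45101 probe sets, 64 controls, 932 annotated to several genes and 9160 without a symbol (annotation supplied with the platform) were left out. The remaining 34945 stood for 18193 genes, 9010 of them with over 1 set, for which the set with the highest mean was used. 34741 sets matched a RefSeq gene ID. Group means were fitted with limma 3.58.1 in R 4.3.3 (8 residual and 4.44 prior degrees of freedom), without covariates, with Benjamini-Hochberg adjustment across the 18193 genes in each of 5 comparisons. The study's own criterion, a rank product (proportion of false positives below 0.01, fold change 1.5 or more), was an alternative, coded for this purpose with numpy 2.4.6 under Python 3.11.15 and run with 100 permutations rather than with the RankProd package. Simulated data had few changed genes, all in the Ahr-/- IMQ arrays, and 1 spread per gene for all groups. In the real data many more genes were called and some arrays stood apart, so the rates below do not give the power of this study. On simulated data, limma recovered 64% of genes changed 2-fold and 96% of those changed 4-fold in the Ahr-/- response. It recovered 63% and 95% on day 2, and 23% and 88% when responses were compared. False calls among 18193 genes numbered 8, 6 and 2. The rank product recovered 2% of genes changed 2-fold and 99% of those changed 4-fold in the Ahr-/- response, and 3% and 95% on day 2, with 31 and 23 false calls.

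The markers and the 14 gene lists were chosen with earlier results of these data known, so list counts are descriptions without list tests. Text names every marker, up to 4 called genes per list and comparison by smallest adjusted p, or up to 2 with the highest mean signal, and the 5 genes most like Cd207 and Itgax; other list genes were named after their values were seen. Alternatives were a stricter threshold, no fold minimum, all probe sets or their mean, a mean signal of at least 5, median centring, a further quantile normalization, a variance trend with robust priors, the groups alone, the replicate number as a block, the Gapdh 3'/5' difference as covariate, Ahr-/- IMQ replicate 3 alone and each array left out. Figures were drawn with matplotlib 3.10.9 and tables with pandas 2.3.3.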

Additional observations from a re-analysis of the deposited data

Results flagged for a closer look

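By the test of the difference, no marker's response to IMQ was shown to differ between the genotypes, where 1.32% of all genes passed. In limma the responses of 12 genes of the other lists differed, given here as Ahr-/- minus Ahr+/- response. Among cells of the DC lists, these were Cxcr4 of the Langerhans cell list (2.10, adjusted p = 0.034), Nfil3 of the development list (2.05, adjusted p = 0.0173) and Marcksl1 of the maturation list (2.80, adjusted p = 0.0409). Of the neutrophil markers, Trem1 (3.46, adjusted p = 0.00127), Clec4e (4.43, adjusted p = 0.0155), Csf3r (2.53, adjusted p = 0.0155) and Mmp9 (2.72, adjusted p = 0.042) differed. Of the macrophage markers, Cd14 had a difference of 3.06 (adjusted p = 0.0174) and Adgre1 of -2.39 (adjusted p = 0.0223). Krt1 (-2.98, adjusted p = 0.0488), Krt10 (-2.85, adjusted p = 0.0496) and the B cell gene Ighm (-1.85, adjusted p = 0.0449) were lower. Trem1 was called in all 23 alternatives, and the other 11 lost their call under the Gapdh covariate, and also when replicate 3 stood alone for Ahr-/- IMQ skin.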

How the results depend on the processing

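Of 985 marker values recomputed under 25 alternatives, 951 kept their side of the threshold, 31 lost a call and 3 gained one. Most of the 985 belong to results that were not called and had no call to lose. The 31 losses fell on the 2 calls of the Ahr+/- response and the 6 of the Ahr-/- response. No call reversed, and 37 uncalled values changed sign. Cd207 and Cd83 in Ahr-/- skin lost their calls under the rank product alone (proportion of false positives 0.0553 and 0.0406). None of the calls of other list genes changed sign under any alternative other than the rank product. Besides those given with their losses above, the calls of Cd28 (9 of 17 alternatives), Cxcl14 (10 of 18), Il15 and Cd53 in the Ahr-/- response, and Krt27 in the Ahr+/- response (9 of 18 each), were lost in 9 or more.

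Markers called in the Ahr+/- response numbered 1 instead of 2 at an adjusted p under 0.01, with the groups alone and in the rank product, and 1 to 2 with an array left out (1 without Ahr+/- IMQ replicate 1, 2 or 3). In the Ahr-/- response they numbered 3 instead of 6 with the Gapdh covariate, 2 with replicate 3 alone and 1 in the rank product, which called Cd209a alone in each genotype, and 4 to 6 with an array left out. On day 2 they numbered 1 with the groups alone (Cd86) and 0 to 1 with an array left out (Epcam without Ahr+/- IMQ replicate 1), and in the difference of responses 0 to 1 with an array left out (Cd83 without Ahr+/- untreated replicate 1). Where no marker passed, 4 had an unadjusted p under 0.05 on day 2, 1 without treatment and 4 in the difference of responses, and the rank product called none in the first 2. Among all 18193 genes, 1937 higher and 1891 lower ones had such a p on day 2, and 742 and 438 without treatment. In the difference of responses, 1363 genes above 0 and 1822 below 0 did.

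Genes called in the Ahr+/- response numbered 717 (adjusted p under 0.01), 959 (groups alone) and 234 (rank product), and 901 to 2436 with an array left out against 1646 (901 without Ahr+/- IMQ replicate 1 and 984 without replicate 2). In the Ahr-/- response they numbered 2725 (adjusted p under 0.01), 2226 (Gapdh covariate), 1444 (replicate 3 alone) and 353 (rank product) against 4130. On day 2 they numbered 215 (adjusted p under 0.01), 1091 (groups alone), 27 (Gapdh covariate), 43 (replicate 3 alone) and 219 (rank product), and 196 to 1286 with an array left out against 724 (196 and 200 without Ahr+/- IMQ replicates 2 and 3, 405, 217 and 1286 without Ahr-/- IMQ replicates 1, 2 and 3). Without treatment they numbered 0 (mean of all probe sets, and groups alone), 2 (median centring), 3 (replicate block) and 59 (rank product), and 1 to 206 with an array left out against 1 (206, 4 and 2 without Ahr+/- untreated replicates 1, 2 and 3). For the difference of responses they numbered 27 (adjusted p under 0.01), 12 (Gapdh covariate) and 18 (replicate 3 alone), and 31 to 942 with an array left out against 241 (31 without Ahr-/- untreated replicate 1 and 942 without Ahr+/- untreated replicate 1; each array but Ahr+/- untreated replicate 2 moved it by over 1.5 times).

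Whether the replicate numbers pair the samples was not settled. In 18 same-numbered pairs of arrays the deviations correlated between -0.18 and 0.32, 7 of them over 0.1. In 9 of the 18 pairs the array correlated best with its own number, and with so few arrays a group some such matches arise by chance. With the replicate block, 5 markers were called in the Ahr-/- response, Cd86 being lost (-0.71, adjusted p = 0.0607), and the other marker calls were unchanged. The causes of these changes were not tested. The signals have no background threshold, so dim markers such as Xcr1 and Siglech could not be called absent.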
